A study of Bos taurus and Sus scrofa with 6 samples.

Results

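Cytotoxic lymphocytes of the prepubertal cattle testis were defined by a fixed rule on unique molecular identifiers (UMIs), the tags that mark single captured RNA molecules. A barcode counted as a called cell if it held at least 460 UMIs in cattle 1, 972 in cattle 2 or 2644 in cattle 3. A called cell was kept if at least 2 of NKG7, CTSW and GZMM and at least 1 of CD3D, CD3E, CD3G, CD2 and LCK had a UMI. It was dropped if at least 2 genes had a UMI in any marker set of Sertoli cells (FSHR, AMH, CLDN11), Leydig cells (CYP17A1, CYP11A1, STAR), macrophages (C1QA, C1QB, C1QC) or germ cells (DDX4, DAZL, MAEL, TDRD1). The rule found 1669 cells among 18504 called cattle cells, with 207 in cattle 1, 776 in cattle 2 and 686 in cattle 3. These genes chose the cells, so their values are given below as a description without a test.

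The cells came from testes of 3 Holstein bull calves aged 4.5 months, removed by castration. Suspensions were made with 3 enzymes, trypsin, collagenase IV and DNase I. About 8000 live cells per animal went into 10x Genomics droplets, and the libraries were sequenced together in 1 lane. There was no treatment, genotype or sort. The study also profiled 3 pigs of mixed breed aged 3 months, which serve here for the number of cells alone. Each library was counted as 1 animal. The titles of cattle 2 and 3 carry 1 testis number but 2 animal tags, and the same holds for 2 of the pig libraries.

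The 3 cattle libraries differed widely in depth, with 5805223 UMIs in cattle 1, 27409347 in cattle 2 and 53325608 in cattle 3. The cytotoxic lymphocytes had a median of 592, 1382 and 3639 UMIs per cell in cattle 1, 2 and 3, against 796, 1717 and 4547 in all called cells. The 8751 barcodes called in cattle 2 exceeded the number of cells loaded. Called barcodes were shared by cattle 1 and 2 in 45 cases, by cattle 1 and 3 in 23 and by cattle 2 and 3 in 71, where 42.1, 29.8 and 73.7 are expected if each library drew from the 737280 barcodes of the chemistry at random. Only 1 shared barcode was a cytotoxic lymphocyte in both libraries, and 31 of the 1669 cells had a barcode that was also called in another cattle library.

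Cytotoxic lymphocytes are the cells of the immune system that kill infected or transformed cells on contact. They store perforin, a protein that opens membranes, and granzymes, proteases that enter the target through the opened membrane, in granules that are released toward the target. CD8 T cells recognise peptides on class I major histocompatibility complex (MHC) molecules through the T cell receptor and its CD3 chains, gamma-delta T cells carry another pair of receptor chains, and natural killer cells use germline-encoded activating and inhibitory receptors without CD3. In the testis, lymphocytes lie in the interstitium, outside the seminiferous tubules that shelter germ cells.

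Cytotoxic lymphocytes made up 5.84% of called cells in cattle 1 (exact 95% binomial interval 5.09 to 6.66), 8.87% in cattle 2 (8.28 to 9.48) and 11.1% in cattle 3 (10.3 to 11.9), a mean of 8.59% ± 2.62 (SD, n = 3). The intervals did not overlap, and the share was higher the deeper the library. When every called cell was thinned to 460 UMIs before the rule was applied, the share was 4.23% in cattle 1, 3.37% in cattle 2 and 3.43% in cattle 3, so the order over animals did not hold at equal depth. The same rule found 1 of 3248, 7 of 3932 and 33 of 2277 called cells in the 3 pigs, a mean of 0.553% ± 0.780. All cattle shares lay above all pig shares, and a two-sided exact permutation test gave p = 0.1, the smallest value that 3 against 3 allows. Intervals cover counting error only. A lower share of cells in a dissociated suspension cannot be told apart from a lower recovery of these cells from the tissue.

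**Figure D1:**
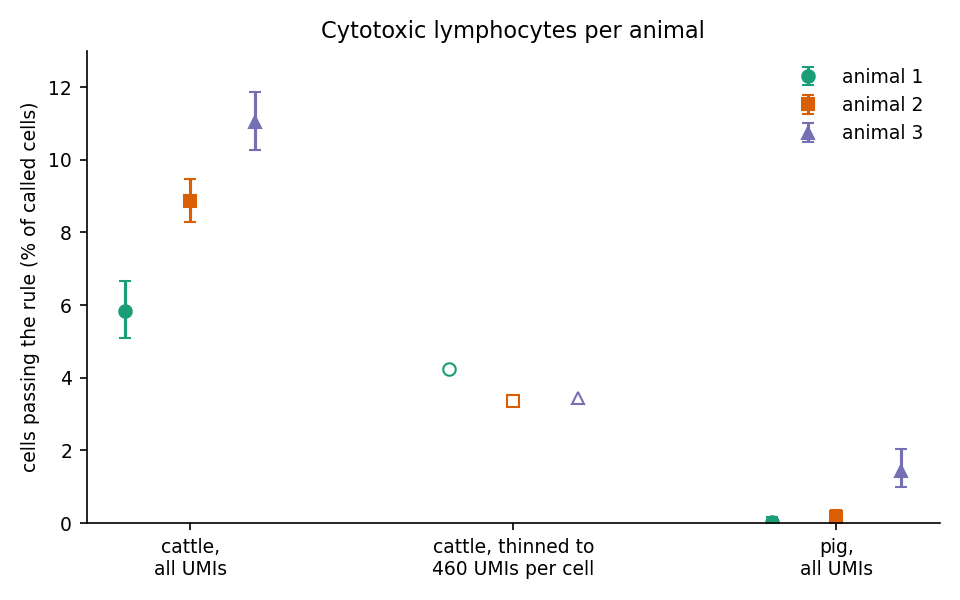
Cells that passed the rule as a percent of called cells (y axis) for each animal. Filled points use all UMIs and carry exact 95% binomial intervals, open points use cells thinned to 460 UMIs. With all UMIs the cattle lay between 5.84% and 11.1%, thinned cattle between 3.37% and 4.23%, and pigs at or below 1.45%.

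CTSW, which encodes cathepsin W, a protease of killer cells, stood at 9336, 7298 and 4734 CPM (UMIs of the gene per 1000000 UMIs of the summed cells) in cattle 1, 2 and 3. NKG7, a granule membrane protein, was at 2166, 1454 and 1221 CPM. GZMM, granzyme M, was at 912, 452 and 282 CPM. All 3 genes were lowest in cattle 3, the deepest library. CD3E, a signalling chain of the T cell receptor complex, was at 1227, 972 and 1033 CPM and had a UMI in 61.4%, 79.4% and 96.4% of the cells. CD3G, another chain of that complex, was at 219 CPM in cattle 1 but at 21.1 and 20.3 CPM in cattle 2 and 3.

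CTSW was also common as free RNA, which floats in the suspension and enters every droplet. In barcodes with at most 50 UMIs, which mostly hold no cell, CTSW stood at 628, 635 and 488 CPM. A CTSW UMI was found in 24.7%, 13.5% and 31.6% of Sertoli cells, a type that should lack it, against 100%, 99.9% and 99.9% of cytotoxic lymphocytes. Sertoli cells passed the rest of the rule in 0 of 77, 6 of 771 and 28 of 881 cases, and the drop sets then removed them. NKG7 was present in macrophages as well, at 659, 403 and 337 CPM in the 369 cells with all of C1QA, C1QB and C1QC, at least 2 further macrophage markers and fewer than 2 of the cytotoxic genes. The drop sets removed 16, 70 and 197 cells in cattle 1, 2 and 3, of which 8, 45 and 162 carried at least 2 of the C1Q genes.

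Cells just outside the rule differed from those just inside it mainly in cattle 3. Cells just inside, with 2 cytotoxic genes and 1 T cell gene, numbered 79, 189 and 22. Their CCL5 level was 7150 CPM in cattle 1, 6378 in cattle 2 and 3321 in cattle 3. Cells with 1 cytotoxic gene and a T cell gene numbered 80, 152 and 98, and their CCL5 level was 4568, 3286 and 279 CPM. Cells with at least 2 cytotoxic genes and no T cell gene numbered 96, 96 and 36, and their CCL5 level was 5803, 4431 and 421 CPM. The chemokine gene CCL5 thus stayed high in both outside groups of cattle 1 and 2 and was low in those of cattle 3. DCN, a matrix gene of stromal cells, was at 2127 and 3209 CPM in these 2 outside groups of cattle 3, against 469 CPM in the cytotoxic lymphocytes. No test was made on these values, since the rule chose the groups.

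The label was checked on genes outside the rule, by the roles of the genes. CD8A, the alpha chain of the CD8 coreceptor that binds class I MHC, was at 247, 384 and 415 CPM in cattle 1, 2 and 3. CD8B, the beta chain, was at 226, 216 and 184 CPM. Both were well above macrophages, at means of 4.04 and 1.71 CPM, and above free RNA, at 31.4 and 23.0 CPM. Both chains had a UMI in 238 of 686 cells in cattle 3, where 491 had CD8A and 300 had CD8B. CD27, a costimulatory receptor, was at 54.8, 101 and 105 CPM. In contrast, CD5, a receptor that dampens T cell receptor signalling, was at 6.85, 0.810 and 1.81 CPM. CD6, CD28, BCL11B and THEMIS, also of T cells, had at most 1 UMI in all cytotoxic lymphocytes together. CD28 and BCL11B had none in macrophages, Sertoli cells or the T cells without cytotoxic genes described below either, so that no group showed these rows to be detectable.

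CD4, the coreceptor of helper T cells, had 2 UMIs in the 1669 cells. FOXP3, CTLA4, ICOS and CCR6, genes of regulatory and helper T cells, had none. These genes and CD4 were also at 0 in macrophages, Sertoli cells and the T cells without cytotoxic genes. No group thus showed the rows of FOXP3, CTLA4, ICOS and CCR6 to be detectable, and the row of CD4 was seen only in the 2 UMIs above. CD3 cells of the alpha-beta and the gamma-delta lineage could be compared only in part, because the constant genes of the alpha, beta and gamma chains have no row under their usual symbols here. TRDC, the delta chain constant gene, was at 110, 25.9 and 62.0 CPM and had a UMI in 6.76%, 4.12% and 17.1% of the cells. TARP, a transcript of the gamma chain locus, was at 82.3, 88.3 and 133 CPM. TARP was found in 0 of 14 cells with TRDC in cattle 1, 3 of 32 in cattle 2 and 26 of 117 in cattle 3. In cattle 2 and 3 this was 9.38% and 22.2%, against 8.33% and 17.0% of the cells without TRDC.

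Receptors shared with natural killer cells were present in part. KLRC1 (ENSBTAG00000045786), a lectin-like receptor chain, was at 20.6 CPM in cattle 1, 327 in cattle 2 and 487 in cattle 3. The row named NKG2A (ENSBTAG00000014154), of the same family, was at 48.0, 172 and 167 CPM, and KLRD1, the partner chain CD94, at 75.4, 152 and 260 CPM. All 3 were lowest in cattle 1. These genes belong to a family of near-identical copies, so their separate levels are uncertain. NCR3 and CD244, activating receptors, were even between animals, at 122 ± 19.9 and 93.6 ± 23.7 CPM (SD, n = 3). Other receptors of natural killer cells, some of them shared with T cells, were close to 0. NCR1 had 3 UMIs in all cytotoxic lymphocytes, and KLRB1 and KLRF1 stood at means of 2.53 and 3.29 CPM. KLRG1 had no UMI in the cytotoxic lymphocytes or in any other group compared. KLRK1, the activating receptor NKG2D, was at 0, 41.3 and 36.3 CPM.

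The adaptors that link such receptors to signalling split in 2 ways. FCER1G, the gamma chain of Fc receptors, was at 494, 678 and 632 CPM in the cytotoxic lymphocytes, against 1978, 925 and 1131 CPM in macrophages and 190, 135 and 143 CPM in free RNA. TYROBP, the adaptor DAP12, was at 13.7, 3.24 and 0.726 CPM, against 719, 638 and 457 CPM in macrophages and 86.7, 36.5 and 30.1 CPM in free RNA. FCER1G was therefore above free RNA in each animal and TYROBP below it. C1QA, of the rule's macrophage set, was at 158, 51.0 and 51.1 CPM in the same cells. HCST, the adaptor DAP10, was at 233, 258 and 232 CPM, and CD247, the zeta chain of the T cell receptor complex, at 117, 101 and 144 CPM.

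**Figure D2:**
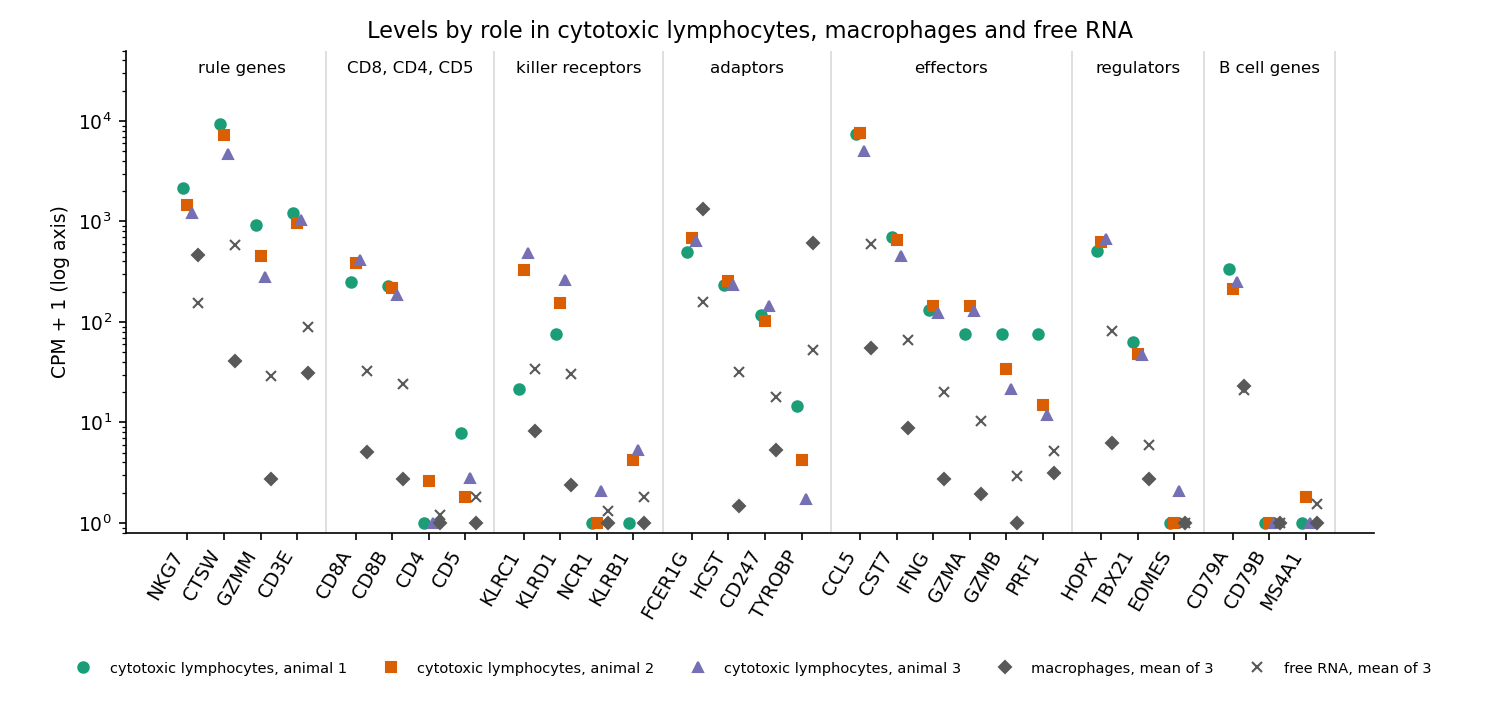
CPM plus 1 on a log axis (y) for genes ordered by role (x). Coloured points are the summed cytotoxic lymphocytes of each animal, diamonds the mean of macrophages and crosses the mean of free RNA over 3 animals. FCER1G stood above free RNA and TYROBP below it in all 3 animals, and NCR1, CD4, EOMES, CD79B and MS4A1 lay near 0.

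CST7, an inhibitor of granule proteases, was at 706, 659 and 449 CPM. GZMA (ENSBTAG00000021958), granzyme A, was at 75.4, 142 and 129 CPM. GZMB (ENSBTAG00000039813), granzyme B, was at 75.4, 33.2 and 20.3 CPM and had a UMI in 2.90%, 4.25% and 3.79% of the cells. PRF1, perforin, was at 75.4, 13.8 and 10.9 CPM and had a UMI in 4.83%, 2.19% and 4.37% of the cells. Free RNA held PRF1 at a mean of 4.17 CPM, and Sertoli cells with fewer than 2 of the cytotoxic genes, the Sertoli cells used from here on, had a PRF1 UMI in 1.37%, 0.395% and 0.606% of cases. GZMK, granzyme K, had 18 UMIs in all. IFNG, interferon gamma, was even between animals, at 130, 143 and 121 CPM, and FASLG, the death ligand, at 20.6, 12.2 and 17.8 CPM. RAB27A and STX11, which move and dock granules, had fewer than 3 CPM in every animal.

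Chemokines and receptors for tissues formed a further group. CCL5 (ENSBTAG00000007191), which attracts leukocytes, was at 7430, 7562 and 5056 CPM and had a UMI in 93.2%, 96.5% and 92.0% of the cells, against 8.22%, 10.3% and 30.1% of Sertoli cells. CCL3 and CCL4, related chemokines, were highest in cattle 3, at 87.8 and 88.9 CPM, against 36.5 CPM for each in cattle 2. For CCL4, 102 of the 245 UMIs of cattle 3 came from 1 cell. XCL1, which attracts dendritic cells, was at 42.2 ± 14.1 CPM (SD, n = 3). CXCR6, a receptor of tissue lymphocytes, was at 89.1, 77.8 and 82.3 CPM and differed little between animals. CXCR3, CD69, ZNF683 and ITGAE, which mark activated or resident T cells, stood at means of 35.6, 45.8, 42.5 and 29.9 CPM. ITGAE gave no contrast with free RNA, at 56.0 CPM. Among genes of circulating T cells, IL7R, the interleukin 7 receptor, was at 0, 3.24 and 3.99 CPM. CCR7, a lymph node homing receptor, had 2 UMIs in all. The 9 naive and circulating T cell genes with a row summed to 178, 212 and 196 CPM, with MYC the most abundant.

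Among transcription factors, HOPX was at 507, 624 and 664 CPM, against a mean of 80.5 CPM in free RNA and 5.29 CPM in macrophages. ID2 was at 274, 266 and 303 CPM and TBX21, the T-bet factor of killer and helper 1 cells, at 61.7, 47.0 and 46.1 CPM. EOMES, a relative of TBX21, and RUNX3, a factor of CD8 cells, had at most 3 UMIs each. Both were under 1 CPM in all other called cells too.

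CD79A, the signalling chain of the B cell receptor, was at 336, 212 and 246 CPM in the cytotoxic lymphocytes, against 19.2, 8.66 and 9.49 CPM in all other called cells. CD79B, its partner, and PAX5, the B cell master regulator, had no UMI, and MS4A1 had 1. CD79B and PAX5 also had none in macrophages, Sertoli cells or the T cells without cytotoxic genes, so that no group showed these rows to be detectable. Across cells of cattle 3, CD79A had a UMI in 380 of 661 cells with CD3E, or 57.5%, and in 48.0% of those without. The other 6 B and plasma cell genes with a row summed to under 9 CPM in each animal.

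Against all other called cells, with 10 CPM added to both sides, CCL5 had the largest ratio of mean CPM among genes outside the rule. The ratio was 28.0 for CCL5, 24.8 for CD52, a surface glycoprotein of lymphocytes, and 23.6 for UBD, a ubiquitin-like modifier. The next were CD7, at 19.7, CST7, at 18.6, and HOPX, at 17.9. GIMAP7 (ENSBTAG00000030940 and ENSBTAG00000008550) and GIMAP4, GTPases of lymphocyte survival, were at 17.2, 17.0 and 16.8, but the GIMAP7 symbol covers several similar rows. RAC2, PTPRCAP, ARHGDIB and CORO1A, which act in the leukocyte cytoskeleton or at CD45, lay between 13.8 and 16.4, with KLRC1 at 16.1 and CD8A at 14.2. UBD was at 1337, 2584 and 3375 CPM and differed more between animals than CD52, at 8959, 7954 and 7844 CPM. These ratios are descriptions, because the rule separated the groups.

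Shares of cells with a UMI depend on depth, so they were also read in cells thinned to 460 UMIs. With all UMIs, CD8A was detected in 15.5%, 43.4% and 71.6% of cytotoxic lymphocytes, and after thinning in 10.1%, 17.0% and 17.2%. CD8B was detected in 13.5%, 28.0% and 43.7%, and after thinning in 23 of 207, 93 of 776 and 56 of 686 cells. FCER1G was detected in 20.8%, 29.5% and 25.8% of thinned cells and HOPX in 19.3%, 25.6% and 30.2%. KLRC1 stayed low in cattle 1 at equal depth, with 0%, 12.4% and 16.2% of thinned cells. It was also lowest there in other called cells, where cattle 2 and 3 stood at 10.2 and 11.3 CPM, and in free RNA, at 0, 53.6 and 44.5 CPM. The 0 of 207 thinned cells in cattle 1 allows up to 1.45% of cells with a UMI at that depth, and before thinning 3 of the 207 had one. Thinned Sertoli cells had CD8A in at most 0.242% and FCER1G in at most 1.37% of cases, at original median depths of 1771, 3306 and 8911 UMIs.

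**Figure D3:**
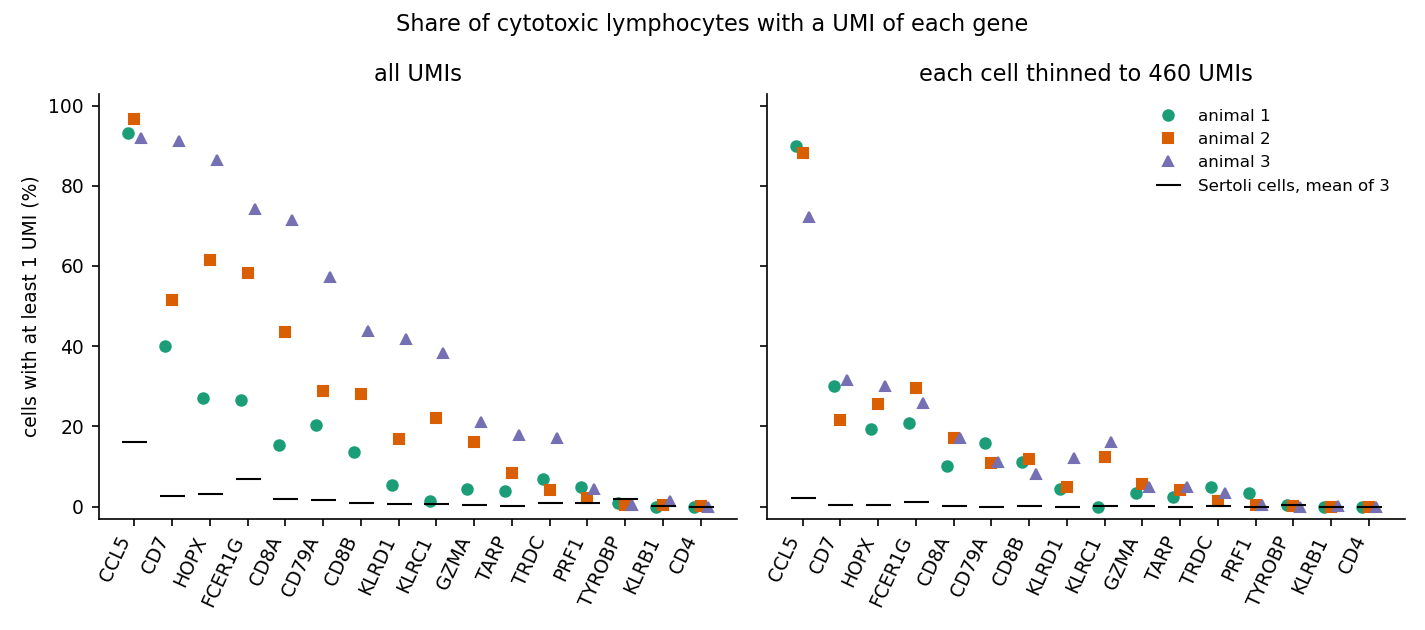
Percent of cytotoxic lymphocytes with at least 1 UMI (y axis) of each gene (x axis) in cattle 1, 2 and 3, with all UMIs on the left and after thinning each cell to 460 UMIs on the right. Bars give the mean of Sertoli cells. With all UMIs most genes were detected most often in cattle 3, and after thinning FCER1G was detected in 20.8% to 29.5% of cells.

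The cytotoxic lymphocytes were compared with T cells without cytotoxic genes, to see which genes other than those of the rule separate killer cells from other T cells in this tissue. The comparison cells had at least 2 of the 5 T cell genes, none of NKG7, CTSW and GZMM, and passed the same drop sets. Only 31 such cells were found, with 4, 8 and 19 in cattle 1, 2 and 3, and they held 2423, 10574 and 80439 UMIs. Cattle 3 thus gave 86.1% of all comparison UMIs. UMIs were summed per animal and group, and 8622 genes were tested.

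CD8A, CD8B and CCL5 were called higher in the cytotoxic lymphocytes, and IL7R, CD5 and CD40LG lower. KLRC1, KLRD1, NKG2A and GZMA were also called higher, but had no UMI in the comparison cells. These genes passed the count filter through the cytotoxic lymphocytes alone, so nothing is concluded from their calls. With the wider comparison group described below, CD8A, CD8B, CCL5, KLRC1, KLRD1 and NKG2A lost the call. With the quasi-likelihood fit of edgeR and p-values adjusted after Benjamini and Hochberg, 39 genes were higher, or 0.452% of those tested, and 15 were lower, or 0.174%. Of the 39, 20 had no UMI in the comparison cells and 11 had 1 to 3, so that their direction in each animal rests on few or no UMIs of the comparison cells. Of the 15, only ANGPTL4 and CDKN2D were lower in all 3 animals. Normalization shifted the fit, with a mean log2 factor difference of -1.25, cytotoxic lymphocytes minus comparison cells. The median log2 fold change over all genes was 0.63. Pooled ratios given below carry no such factor, so they are not on the scale of the fitted changes. With library size alone the balance turned, and more genes were lower than higher, as given in the last section. Without cattle 2 the test called 0 genes higher and 2 lower, and without cattle 3 it called none in either direction.

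CCL5 was at 825, 1324 and 12.4 CPM in the comparison cells of cattle 1, 2 and 3, against 7430, 7562 and 5056 CPM in the cytotoxic lymphocytes. In the comparison cells of cattle 2, 11 of the 14 UMIs came from 1 cell. The groups did not overlap, and the log2 fold change was 4.91 ± 0.76 (SE, edgeR quasi-likelihood, adjusted p = 5.9e-07). CD8A had 2 UMIs in the comparison cells, a pooled ratio of 18.7 (counting interval 5.17 to 154, edgeR adjusted p = 2.9e-04). CD8B was at 0, 189 and 12.4 CPM, so that the groups overlapped, with 3 UMIs, a ratio of 6.08 (2.07 to 29.5, edgeR adjusted p = 0.034), and with the animal as a replicate block its adjusted p was 0.094. FCER1G was at 413, 94.6 and 24.9 CPM, and only in cattle 1, with 1 UMI, did it come close to the cytotoxic lymphocytes (log2 fold change 4.36 ± 0.87, edgeR adjusted p = 3.7e-04). CD7, an early T cell and natural killer cell antigen, was at 413, 94.6 and 49.7 CPM, against 761, 519 and 711 CPM (log2 fold change 3.94 ± 0.81, edgeR adjusted p = 7.6e-04). CD7 had 6 comparison UMIs and was picked after its values were seen. It is not among the 24 genes named by rule, and its call with other comparison cells is not given. When comparison cells with 1 of the cytotoxic genes were let in, 162 cells in all, 14 of the 24 genes named by rule no longer passed. Among these, CCL5, CD8A, CD8B, FCER1G, KLRC1 and KLRD1 had log2 fold changes from 1.05 to 1.63 and edgeR adjusted p from 0.11 to 0.62, and the others were NKG2A, TARP, CCL4, ZAP70, MATK, GNPDA1, LUM and FOSB. The 10 that still passed were CD79A, GZMA, LAG3, LAT2, DTNB, PVRIG, MTHFD1, IL7R, CD5 and CD40LG.

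Genes at 0 in the comparison cells have a lower bound alone, set against 3 UMIs over the 93436 of the whole group. The bound pools the 3 animals, and cattle 3 gave 86.1% of these UMIs, so it does not hold within each animal. It is a description, since these genes passed the count filter through the cytotoxic lymphocytes alone, and nothing is concluded from their calls. On this pooled scale KLRC1 was at least 13.2-fold higher, CD79A at least 7.45-fold, KLRD1 at least 6.90-fold and NKG2A at least 5.10-fold. LAT2 and DTNB were at least 5.72-fold and 5.50-fold higher, GZMA at least 4.07-fold and TARP at least 3.68-fold. PVRIG and MATK, an inhibitory receptor and a kinase, were at least 1.72-fold and 1.77-fold higher, and GNPDA1 and MTHFD1 at least 2.19-fold and 2.29-fold. CCL4 was at least 2.22-fold higher, but 102 of its 295 UMIs in the cytotoxic lymphocytes came from 1 cell. For PVRIG, MATK, GNPDA1 and MTHFD1 the edgeR adjusted p lay between 0.053 and 0.087 with the animal as a replicate block. ZAP70, a kinase of the T cell receptor, and LAG3, an inhibitory receptor, each had 1 comparison UMI, at ratios of 10.1 (1.80 to 399) and 14.1 (2.52 to 557), and their adjusted p under the block was 0.074 and 0.059. The LAG3 UMI came from cattle 1, where the comparison cells were at 413 CPM and the cytotoxic lymphocytes at 192 CPM.

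IL7R was lower in the cytotoxic lymphocytes, at 0, 3.24 and 3.99 CPM, against 0, 94.6 and 224 CPM in the comparison cells. Its pooled ratio in favour of the comparison cells was 56.1 (counting interval 27.0 to 119), and its log2 fold change was -4.89 ± 0.63 (SE, edgeR adjusted p = 6.8e-11). CD5 was at 0, 94.6 and 87.0 CPM in the comparison cells (log2 fold change -4.73 ± 0.90, edgeR adjusted p = 1.7e-04). CD40LG, the ligand by which helper T cells activate B cells, was at 99.5 CPM in cattle 3 and at 0 in the other animals (log2 fold change -5.37 ± 0.99, edgeR adjusted p = 7.4e-05). None of the 3 had a UMI in the 4 comparison cells of cattle 1.

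Of the 10 tested genes of the fixed stroma and myoid list, LUM alone was among the 15 lower genes, and 9 were not called. LUM, a matrix proteoglycan, was at 0, 0 and 186 CPM in the comparison cells and at 20.6, 13.8 and 25.8 CPM in the cytotoxic lymphocytes, so that it was lower in cattle 3 alone. ELN, elastin, had 71 UMIs in the comparison cells, all in cattle 3. CAV1, CCDC80, SNAI2 and C11H2orf40 were also among the 15. Like ELN, these genes lie outside the list and were picked after their values were seen. The 10 stroma and myoid genes summed to 3714, 2364 and 9013 CPM in the comparison cells against 1652, 1713 and 1684 CPM in the cytotoxic lymphocytes, with DCN the most abundant and none at 0. Their part in the comparison was not tested. FOSB, an immediate early gene, had 11 comparison UMIs, of which 10 were in 1 cell of cattle 3.

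**Figure D4:**
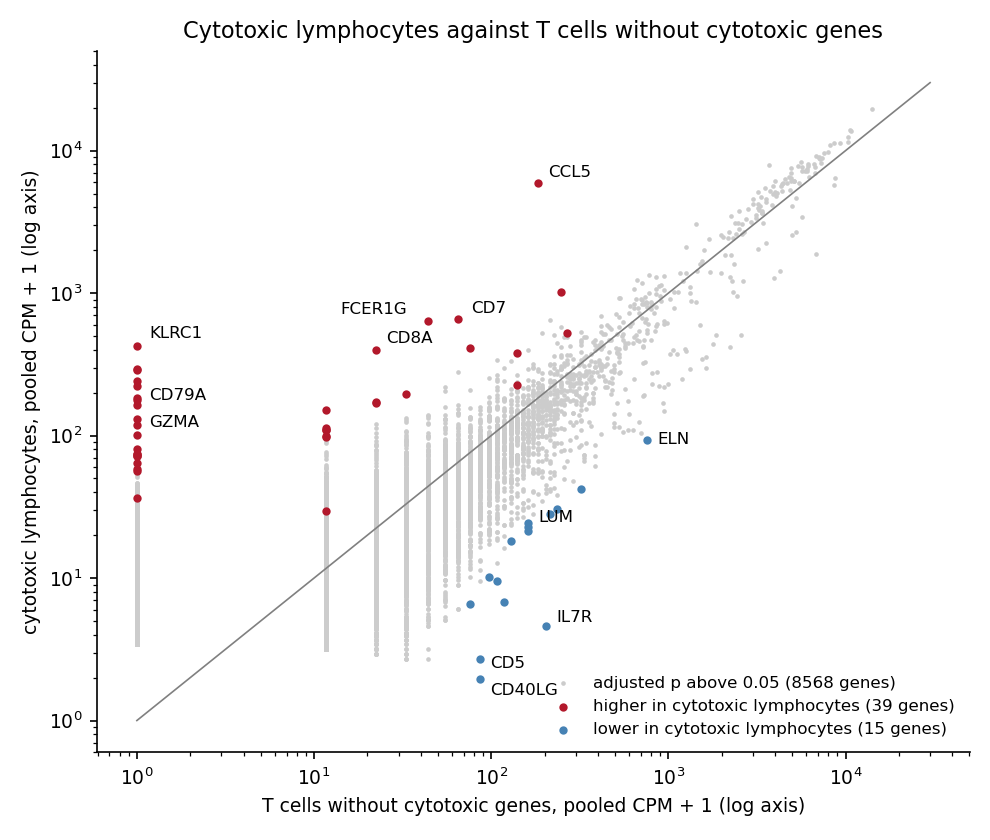
Pooled CPM plus 1 over the 3 animals in T cells without cytotoxic genes (x) and cytotoxic lymphocytes (y), both on log axes, with 1 point per gene tested and a line of equality. Of 8622 genes, 39 were higher (red) and 15 lower (blue) by edgeR. KLRC1, CD79A and GZMA sit at 0 on the x axis, where only a lower bound is known.

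By list, few of the tested genes passed, beside 0.452% higher and 0.174% lower over all genes. Of 15 tested genes of natural killer receptors and adaptors, 3 were called higher, FCER1G, KLRC1 and KLRD1, all of which lost the call with the wider comparison group. KLRC1 and KLRD1 had no UMI in the comparison cells, so nothing is concluded from their calls. Of the 15, 6 had no UMI in the comparison cells and passed the count filter through the cytotoxic lymphocytes alone, so no median is read from that list. The same holds for 6 of the 14 granule and killing genes, 5 of the 12 killer cell transcription factors and 4 of the 11 chemokines and receptors. Of the 14 granule and killing genes, only GZMA was called higher, and it had no UMI in the comparison cells, so nothing is concluded from its call. Of 11 chemokines and receptors, CCL5 was higher, and CCL4 was called higher without a UMI in the comparison cells. Of 5 CD8 and alpha-beta T cell genes, CD8A and CD8B were higher and CD5 lower. None of 9 tissue residence genes, 12 killer cell transcription factors, 9 class I MHC pathway genes, 17 interferon-induced genes or 16 cell division genes passed. The remaining immune lists gave 1 call each at most, LAG3 among 3 inhibitory receptors, ZAP70 among 16 signalling genes, IL7R in the circulating and the cytokine receptor lists, CD40LG as the only helper gene tested, FOSB among 12 immediate early genes, and none of 2 gamma-delta or 2 class II MHC genes. Of the lists of other cells, LUM among stromal and CD79A among B cell genes passed, and CD79A had no UMI in the comparison cells.

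The rule also accepts CD2 or LCK in place of CD3, so the 147 cells without any CD3 UMI were compared with the 1522 that had CD3D, CD3E or CD3G. They numbered 44 of 207, 86 of 776 and 17 of 686 cells in cattle 1, 2 and 3, a smaller part the deeper the library. Their median depths were 631, 1358 and 3536 UMIs, against 591, 1382 and 3639 with CD3. A CD3 UMI can be missed in a shallow cell, so the group without CD3 may hold T cells. No cell of it is taken as lacking CD3. CCL5 was at 8025, 7224 and 5138 CPM without CD3 and at 7269, 7604 and 5054 CPM with it. FCER1G was at 353, 683 and 514 CPM without CD3 and at 532, 677 and 635 CPM with it. The groups overlapped for both genes. TYROBP had no UMI in the cells without CD3. NCR1 had 2 of its 3 UMIs there, in the 17 cells of cattle 3, and KLRB1 had 5 of its 16 UMIs (edgeR adjusted p = 0.87). CD8A was at a mean of 224 CPM without CD3, against 358 CPM with it (edgeR adjusted p = 0.87).

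Of 8552 genes tested, the edgeR quasi-likelihood test called 0 higher in the cells with CD3 and 3 lower, or 0.0351%. There were 377 genes with an unadjusted p under 0.05, and DESeq2 called none. Blocking on the animal gave 5 higher and 6 lower. The 3 lower genes were IDO1, which degrades tryptophan, and ENSBTAG00000047449 and ENSBTAG00000047816, which carry no symbol. In the cells without CD3 of cattle 3, 397 UMIs of ENSBTAG00000047449 came from 2 cells and 323 of them from 1. All 199 UMIs of ENSBTAG00000047816 also came from 2 cells, and the 19 of IDO1 from 4. Without cattle 3 the test called 0 genes lower. No gene of the fixed lists passed this test.

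Genes that differed most between the 3 animals in cytotoxic lymphocytes mostly differed the same way in the other cells of the same library. Of 1867 genes with a mean of at least 50 CPM in cytotoxic lymphocytes, 40 were at least 4-fold higher in cattle 1 than in both others, and 37 of these were at least 2-fold higher there in all other called cells too. PVRIG was at 315, 48.6 and 44.3 CPM in cytotoxic lymphocytes and at 13.2, 1.22 and 1.84 CPM in other cells. MATK was at 219, 49.4 and 51.5 CPM, and 12.3, 2.79 and 2.58 CPM in other cells. In free RNA PVRIG was at 16.8, 7.31 and 7.22 CPM and MATK at 9.85, 7.92 and 16.9 CPM. These lay above the other cells except for MATK in cattle 1. Another 11 genes were at least 4-fold lower in cattle 1, of which 9 were at least 2-fold lower in other cells, mitochondrial ND1 and ND2 and RPL39 among them. The 2-fold cut was looser, and the share of all 1867 genes that pass it was not counted, so these counts are a description. CCR9, a gut homing receptor, was at 6.85, 41.3 and 9.43 CPM and was highest in cattle 2.

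Interferon-induced genes were highest in cattle 3. IFI6 was at 274, 267 and 3681 CPM in cytotoxic lymphocytes, ISG15 at 117, 118 and 826 CPM and MX1 at 0, 26.7 and 136 CPM. The 17 interferon-induced genes with a row summed to 679, 762 and 5463 CPM. In all other called cells cattle 3 was also highest, with IFI6 at 603, 540 and 5014 CPM and ISG15 at 176, 161 and 626 CPM. Free RNA held IFI6 at 700, 549 and 5367 CPM, above the cytotoxic lymphocytes in each animal, and in cattle 3 it held ISG15 at 724 CPM and MX1 at 159 CPM. RSAD2, an antiviral enzyme, was at 6.85, 23.5 and 81.6 CPM in the cytotoxic lymphocytes and at 0, 5.48 and 8.43 CPM in free RNA. The genes of this list thus lay on both sides of free RNA in cattle 3. With 1 library per animal, animal and library cannot be told apart.

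**Figure D5:**
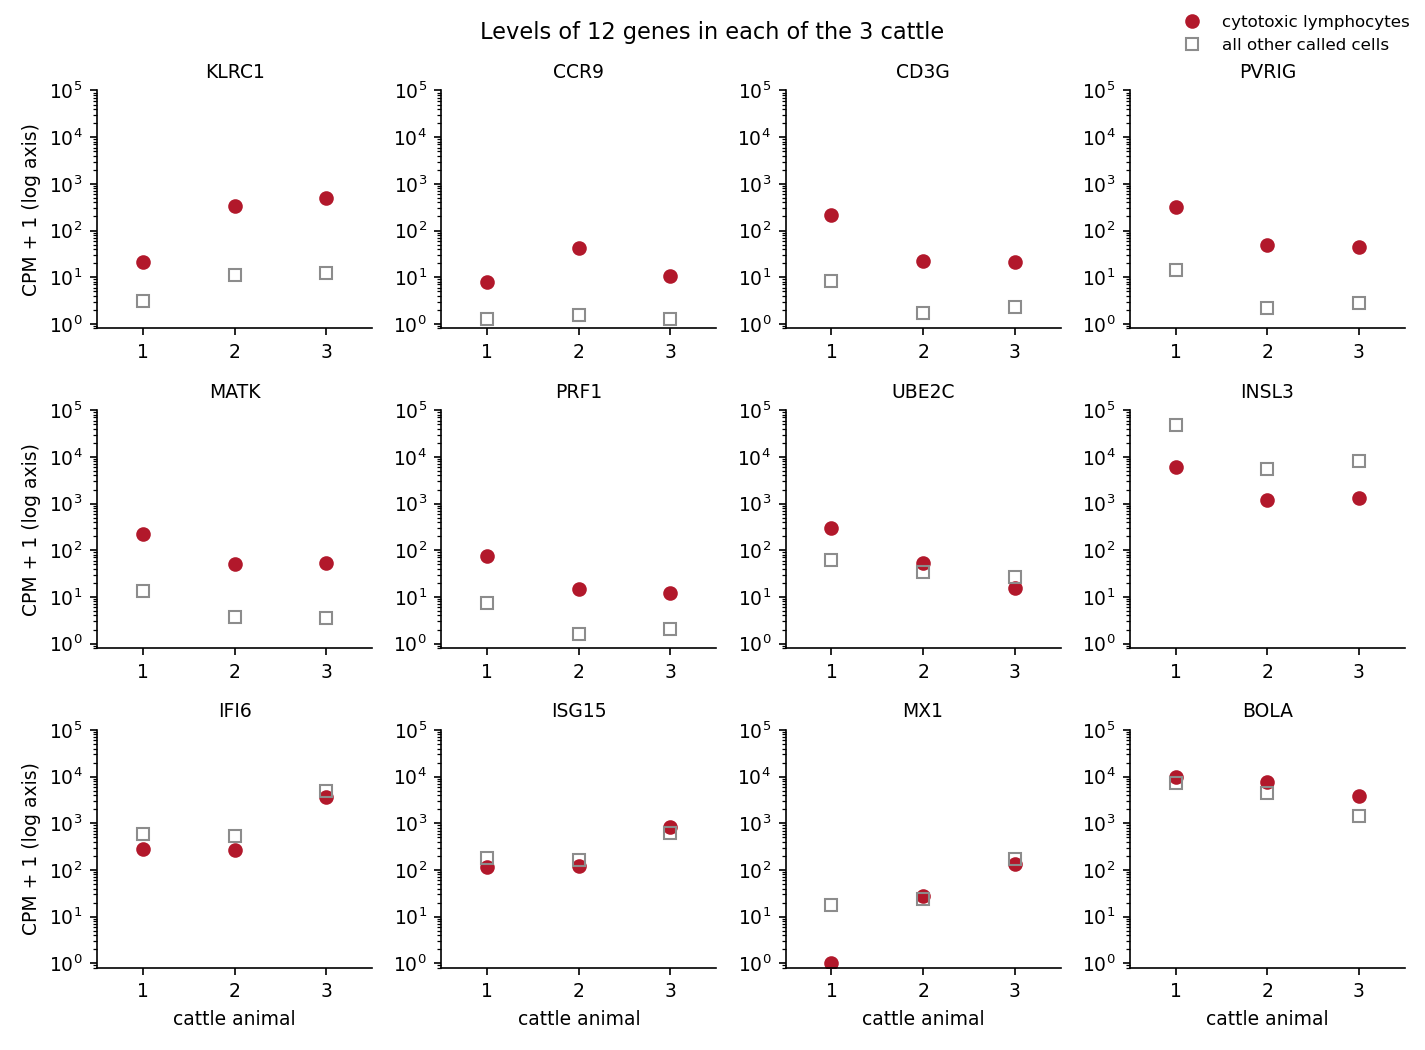
CPM plus 1 on a log axis (y) of 12 genes in cytotoxic lymphocytes (filled) and all other called cells (open) of each animal (x). For IFI6 and ISG15 both groups were highest in cattle 3, and for CD3G, PVRIG and MATK both were highest in cattle 1.

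At least 2 of 11 division genes had a UMI in 10.1%, 2.58% and 2.19% of cytotoxic lymphocytes in cattle 1, 2 and 3, and in 5.31%, 1.03% and 0.583% after thinning. UBE2C, which acts at mitotic exit, was at 302, 53.5 and 14.9 CPM, so that cattle 1 stood highest although its cells were the shallowest. In other called cells the share was 3.24%, 4.03% and 6.97% with all UMIs, below the cytotoxic lymphocytes in cattle 1 and above them in cattle 2 and 3. The thinned share was 1.14%, 1.09% and 0.670%.

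Class I MHC genes were abundant, with B2M, its light chain, at 9637, 11456 and 13069 CPM and the heavy chain row BOLA at 9740, 7652 and 3773 CPM. The heavy chain rows are near-identical between alleles, and JSP.1 was at 5292, 3188 and 8092 CPM, so reads may be split between them. CD74, the class II invariant chain, was at 240, 220 and 195 CPM, below free RNA at a mean of 1029 CPM.

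RNA of other testis cells was measurable in the cytotoxic lymphocytes. INSL3, the Leydig cell hormone, was at 5950, 1182 and 1313 CPM, against 111273, 24508 and 17398 CPM in free RNA. The 7 Sertoli genes with a row summed to 500, 412 and 231 CPM and the 11 macrophage genes to 384, 122 and 149 CPM, with C1QA the most abundant and MARCO at 0. The 5 endothelial genes with a row summed to under 22 CPM and the 9 genes of mast cells, neutrophils and platelets to under 14 CPM in each animal. Red cell and dendritic cell genes summed to under 1 and under 69 CPM, and germ cell genes to 61.7, 58.3 and 72.2 CPM, with UCHL1 the most abundant. ARRDC5, the gene the study pursued in germ cells, had 10 UMIs in all cytotoxic lymphocytes, or a mean of 1.81 CPM.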

How the data were processed

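Single-cell suspensions of testis from 3 cattle and 3 pigs were profiled as 1 library per animal. The authors made the deposited UMI counts with Cell Ranger, version 2.1.0 in the submitters' processing notes and 3.0.2 in the pig matrix headers, on ARS-UCD1.2 or Sscrofa11.1, and deposited them without normalization. The cattle matrices hold every barcode and the pig matrices only selected ones. Of 19994 cattle gene rows, 16350 carry a symbol, and the other 3644 could not be matched to names with the reference table. No cattle sequence was used here.

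The cells, gene lists and tests were chosen with earlier results of these data known. Pig cells were called as Cell Ranger 2 does, with 3000 taken as the expected number. No doublet caller was run. The drop sets remove part of the mixed cells and hold no stromal or endothelial genes. The macrophage group was formed after the data were seen and serves for description alone. Barcodes with at most 50 UMIs gave free RNA. Thinning drew 460 UMIs per cell at random.

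Counts were summed per animal and group and tested with edgeR 4.0.16 in R 4.3.3 (quasi-likelihood, TMM, at least 10 counts, rule genes left out, Benjamini-Hochberg at 0.05). The same animal gives both sums, so that sums are paired, and deviations of the 2 sums of an animal correlated at 0.19 to 0.22 in the comparison with T cells and at 0.49 to 0.58 in that by CD3. The fit with a replicate block was an alternative, as were library size alone, DESeq2 1.42.0, other filters, each animal left out and other cell rules. On simulated counts with a log2 change of 2 the test recovered 15.1% of changed genes against T cells (8561 genes, 6.25% of calls false) and 40.5% by CD3 (8473 genes, 4.71% false). The simulated sums were independent, with a coefficient of variation of 0.3, no animal effect and no single cells that give many UMIs. These shares therefore do not measure the false calls among the real counts. Named genes were, for each test, the 12 largest changes in each direction among genes that passed, had a symbol, moved one way in all 3 animals and had at least 30 UMIs in the higher group, every list gene that passed, and a fixed set of lymphocyte genes, of which MKI67 has no row under its symbol. CD7, ELN, the other stromal genes and genes named in counts of 5 or fewer outside this rule, and the genes of the comparison between animals, were chosen after their values were seen. Alleles and clonotypes were not analysed here. P-values of the main fit treat the 2 sums of an animal as independent and rest on 3 animals, each with 1 library. For genes with 0 to 3 UMIs in the comparison cells they rest on few molecules and do not measure a spread between animals.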

Additional observations from a re-analysis of the deposited data

How the results depend on the processing

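The share of called cells that were cytotoxic lymphocytes, 8.59% as the mean of 3 cattle, was 3.45% when all of NKG7, CTSW and GZMM were required, 4.59% when cells with 1 gene of a drop set were removed and 3.68% after thinning. A minimum of 500 UMIs or no drop sets moved it by less than the SD. The shares with a UMI of CD8A and CD8B fell from 43.5% and 28.4% to 14.8% and 10.4% after thinning.

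Against T cells without cytotoxic genes, 39 genes were higher and 15 lower. With library size alone there were 19 and 132, with DESeq2 7 and 3, with comparison cells of at least 1 T cell gene 589 and 757, and with comparison cells that may hold 1 cytotoxic gene, a choice made after seeing the data, 11 higher. Fewer genes were lower without a filter, 9, and when cells with 1 drop gene were removed, 6, and more when all 3 cytotoxic genes were required, 35. With each animal left out, 0 to 46 genes were higher and 0 to 23 lower. With each animal left out, the log2 fold change of LUM ran from -2.19 to 5.46 and that of FOSB from -3.80 to 5.35, and both were above 0 without cattle 3. Of the 24 genes named in this comparison, 17 kept their call with the replicate block, 22 without cattle 1 and 2 without cattle 2. Without cattle 3, 19 of 21 were weaker and 2 reversed. With DESeq2 7 of 23 kept the call, and 11 of 21 when cells with 1 drop gene were removed. All 24 kept it when all 3 cytotoxic genes were required, but that setting left the 31 comparison cells unchanged, so genes at 0 in them stayed at 0. Such genes, from whose calls nothing is concluded, are part of each of these counts. By CD3, 0 genes were higher and 3 lower. With the replicate block there were 5 and 6, and 1 was higher when cells with 1 drop gene were removed. DESeq2 and the requirement of all 3 cytotoxic genes called 0 lower. With each animal left out, 0 to 1 genes were higher and 0 to 3 lower. The causes were not tested. Depth limits cattle 1, whose cells held a median of 592 UMIs, and 31 comparison cells limit every statement on genes that are low in them.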
